A study of Mus musculus with 6 samples.

Results

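The non-collagen proteins of the connective tissue matrix were followed through 10 genes: Lum, Dcn and Bgn, which encode small leucine-rich proteoglycans, Fn1, Postn and Sparc, which encode adhesive and matricellular proteins, Mgp, Fbln1, and the crosslinking enzymes Lox and Loxl1. Every probe that the platform annotation assigns to one of these symbols was taken, 26 of the 45281 probes on each array. RNA from colon tissue was profiled on Illumina bead arrays to find genes misregulated when Setd2, a histone methyltransferase gene, is disrupted. There were 3 samples labelled control and 3 labelled Setd2 KO, all from mice of the C57BL/6 background aged 6 weeks. The labels used here do not say how the deletion was made, in which cell type it acts, which alleles the controls carry or what sex the mice were. The samples carry replicate numbers without a statement that each came from a separate animal, so the p-values measure only the spread between these samples, which may be technical.

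The matrix of the gut wall is laid down mainly by fibroblasts and smooth muscle cells beneath and around the epithelium. Small leucine-rich proteoglycans bind collagen fibrils and set their spacing, fibronectin and periostin link the matrix to integrins on cells, and lysyl oxidases join collagen and elastin chains by crosslinks. Many of these genes are known targets of TGF-beta signalling and rise in fibrosis and wound repair.

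Values are the authors' deposited normalized intensities, which all 6 arrays share in their median (3.82) and maximum (16715) and which end at a floor of 1. The array control 2 stood apart. Of its probes 41.6% were at the floor, against 33.5% to 36.9% on the other 5 arrays. Over probes with a mean log2 intensity above 6 it lay 1.78 (root mean square, log2) from the median of the others, against 0.47 to 0.62 for the others. Differences between KO and control are therefore given with and without it for most of the matrix probes, other genes and lists named. The Setd2 probe with the highest mean read 374, 600 and 329 in the controls and 201, 119 and 146 in the knockouts (limma adjusted p = 0.846). Where it lies relative to the deleted part is not known, so it checks the labels only in part. Markers of epithelium had mean log2 intensities of 10.81 to 11.77 on the 6 arrays and smooth muscle markers 9.55 to 10.91, and none of the 12 epithelial or 14 smooth muscle markers was at the floor on every array.

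The probes' own sequences were not used here. The promoters of 4 of the 10 genes were found in the RefSeq table for GRCm38.p6. They are shown because they were found there and were not chosen by expression. All tested probes of these 4 genes had KO 1 as the lowest KO array, but KO 2 and KO 3 changed places between genes. Each runs 5′ to 3′ from 250 bases before to 50 bases after the annotated start (for Postn and Fbln1 the downstream of 2 starts). Capitals mark matches on either strand to 3 motifs. The TATA box was searched as TATAAA. For the GC box, the site of Sp-family factors, the letters were GGGCGG. For the SMAD box, bound by transducers of TGF-beta signals, they were CAGAC.
Bgn (chrX:73483351-73483650, plus strand): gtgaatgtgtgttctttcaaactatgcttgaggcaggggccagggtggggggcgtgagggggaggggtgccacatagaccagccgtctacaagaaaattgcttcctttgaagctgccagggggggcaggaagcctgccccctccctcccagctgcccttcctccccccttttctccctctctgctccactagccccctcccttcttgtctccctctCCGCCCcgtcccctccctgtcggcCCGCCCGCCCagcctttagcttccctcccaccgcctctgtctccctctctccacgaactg
Postn (chr3:54360857-54361156, plus strand): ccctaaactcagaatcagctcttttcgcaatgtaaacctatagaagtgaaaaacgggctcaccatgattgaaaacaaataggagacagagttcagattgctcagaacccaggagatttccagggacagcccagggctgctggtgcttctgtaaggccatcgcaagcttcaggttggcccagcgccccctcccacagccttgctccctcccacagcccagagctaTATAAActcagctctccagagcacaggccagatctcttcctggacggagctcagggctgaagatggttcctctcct
Sparc (chr11:55420031-55420330, minus strand): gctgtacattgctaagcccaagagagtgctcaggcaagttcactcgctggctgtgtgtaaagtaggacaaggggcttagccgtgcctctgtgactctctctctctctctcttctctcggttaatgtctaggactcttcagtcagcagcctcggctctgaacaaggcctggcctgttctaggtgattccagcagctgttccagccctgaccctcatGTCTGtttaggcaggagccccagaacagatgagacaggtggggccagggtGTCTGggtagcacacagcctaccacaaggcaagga
Fbln1 (chr15:85205758-85206057, plus strand): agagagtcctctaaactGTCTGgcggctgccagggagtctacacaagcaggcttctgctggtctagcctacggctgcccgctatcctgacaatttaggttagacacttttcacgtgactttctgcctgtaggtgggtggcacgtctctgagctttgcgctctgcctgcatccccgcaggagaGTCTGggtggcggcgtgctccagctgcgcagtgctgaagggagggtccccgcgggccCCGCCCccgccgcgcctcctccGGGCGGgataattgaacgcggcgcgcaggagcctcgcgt
The Postn window held 1 TATA box, 26 bases before the start, and no GC box. Among 32851 promoters of this length 13.6% held the TATA letters. The Bgn window held 3 GC boxes, of which 2 overlap, and the Fbln1 window held 2 (35.7% of all promoters held at least 1). Sparc and Fbln1 held 2 SMAD boxes each, letters found in 49.6% of all promoters. A match is a description of the letters and not a binding site.

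In the comparison of KO with control, no probe of the 10 genes passed the test. Of the 26 probes 20 were bright enough to be tested (mean log2 intensity above 0.96), and every gene kept at least 1. The deposited intensities were compared on the log2 scale with limma, and p-values were adjusted over all 27168 tested probes, of which 0 passed an adjusted p of 0.05 (0%) and 1192 (4.39%) had an unadjusted p under 0.05. Among the 20 matrix probes 0 passed after adjustment (limma adjusted p from 0.482 to 0.999) and 4 had an unadjusted p under 0.05, 3 higher in KO (1.91% of all tested probes) and 1 lower (2.48%). All 4 were dim, with 1 or more arrays at the floor. Groups did not overlap for 4 of the 20 probes, 3 higher and 1 lower in KO. Among these, Fbln1 ILMN_2602770 had log2 means of 0 in control and 2.78 in KO, and Dcn ILMN_1254458 of 3.13 and 0.37. Both passed the filter (0.96) only through the group where they were high. The filter thus favoured their separation, and they lend no support. Both were also among the 4 with an unadjusted p under 0.05. Over all tested probes 9.02% did not overlap, 4.02% higher and 5% lower.

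The means were higher in KO for 14 of the 20 probes, against 47.9% of all tested probes, with a median log2 difference of 0.85 against -0.04 over all tested probes. That median was 0.47 over the 10 leading probes and 0.06 over the 10 bright ones, and over the 20 probes it was 0.56 without control 2. Taking the probe with the highest mean for each gene, 6 of 10 were higher and 4 lower, with differences from -0.50 to 2.60. The upper end is Lox, whose difference is set by the floor because control 2 and control 3 read 1. Without control 2 the mean was higher in KO for 19 of the 20 probes and for 10 of the 10 leading probes, against 50.2% of all tested probes, and the leading probes' differences ran from 0.17 to 2.00 with a median of 0.53. Of the 20 probes 2 then had an unadjusted p under 0.05, where 5.15% of all tested probes did (2.68% higher and 2.47% lower). Of the 10 leading probes 0 did. The 2 were a Fbln1 probe higher in KO and a Dcn probe lower, both dim and past the filter only through their higher group. After adjustment 0 of all tested probes passed without control 2 as well, and the adjusted p of the leading probes rounded to 1.00. Groups did not overlap for 5 of the 20 probes without control 2, 4 higher (8.15% of all tested probes) and 1 lower (8.12%, and 16.3% both ways together). Among the 10 matrix probes with a mean log2 above 6, 6 were higher in KO with all arrays (46.9% of all tested probes as bright) and 1 of them without overlap (3.23%). Without control 2 these counts were 10 (50.8%) and 2 (6.81%). The genes were chosen with earlier results of these arrays known, so this shared direction is a description.

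**Figure D1:**
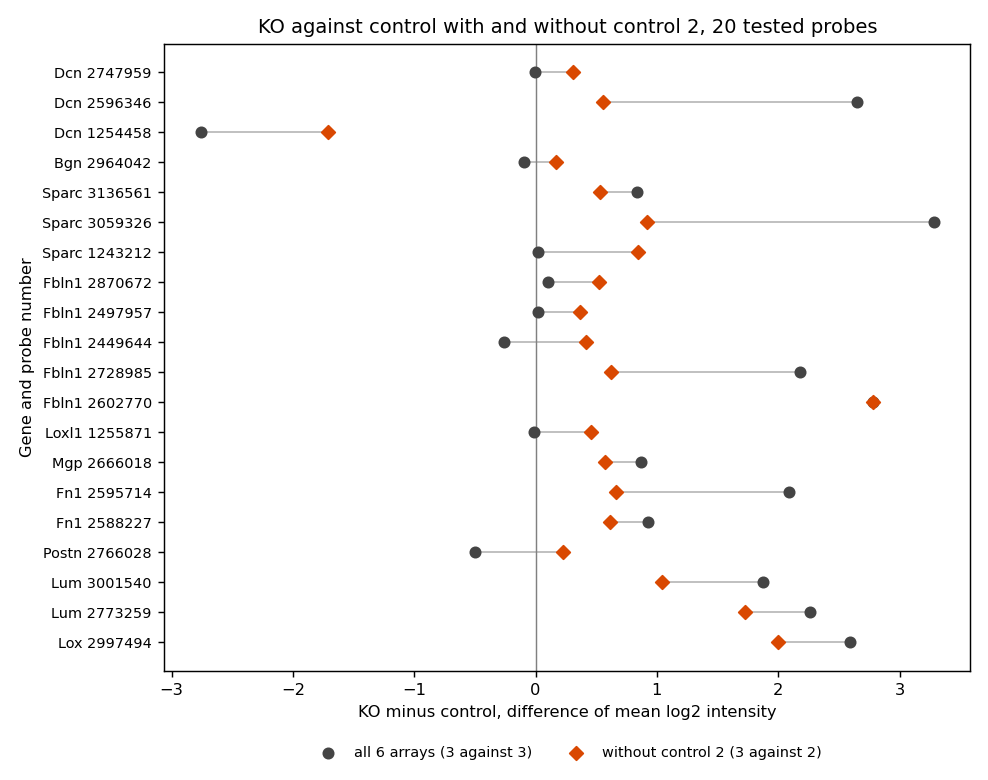
Difference of mean log2 intensity, KO minus control, for the 20 tested probes (gene and probe number on the vertical axis). Circles use all 6 arrays and diamonds leave out control 2. Without control 2 the diamonds of 19 probes lie right of 0, and the long lines mark probes whose difference rested on control 2.

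Decorin, the Dcn product, coats collagen fibrils and binds TGF-beta. Its leading probe (ILMN_2747959) read 1351, 2741 and 1506 in the controls and 1526, 1896 and 1900 in the knockouts. The highest array was control 2, the 3 KO arrays lay above the other 2 control arrays, and the log2 difference was -0.01 (SE 0.46) with control 2 and 0.31 (SE 0.32) without it. A second probe (ILMN_2596346) read 49.5 on control 1 and 125 on control 3 but was at the floor on control 2, and it read 75.9, 154 and 131 in KO. Its log2 difference was 2.65 (SE 1.72, limma adjusted p = 0.921) with control 2 and 0.55 (SE 0.57) without. Another, dim probe (ILMN_1254458), assigned to another transcript record, went the other way. It read 3.73, 37.5 and 4.80 in control and 2.18 on KO 1, and was at the floor on KO 2 and KO 3. It was the only tested matrix probe lower in KO without overlap (exact permutation p = 0.1, the smallest that 3 against 3 arrays allow). Its log2 difference was -2.76 (SE 0.95), and -1.71 (SE 0.49) without control 2. This probe passed the filter only through its control values.

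Biglycan, the close relative of decorin encoded by Bgn, had 1 probe. It read 688, 1249 and 779 in control and 581, 1112 and 857 in KO. The groups overlapped widely, with means of 9.77 ± 0.45 (SD, n = 3) and 9.68 ± 0.47 on the log2 scale. The log2 difference was -0.09 (SE 0.48) and 0.17 (SE 0.40) without control 2. Lumican, the keratan sulfate proteoglycan encoded by Lum, read 11.8, 3.74 and 38.7 in control and 24.2, 93.2 and 37.6 in KO on its brighter probe (ILMN_3001540). Control 3 lay above KO 1 and KO 3, so the groups overlapped, and the log2 difference of 1.88 (SE 0.96, limma adjusted p = 0.921) became 1.04 (SE 0.81) without control 2. Its dimmer probe (ILMN_2773259) read 5.10 and 1.80 on control 1 and control 3, with control 2 at the floor, and 4.78, 20.4 and 10.3 in KO. The groups overlapped there too, with a log2 difference of 2.26 (SE 0.81, limma adjusted p = 0.921), and 1.73 (SE 0.80) without control 2.

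Of 10 other genes for small leucine-rich proteoglycans, 6 were bright enough to be tested, and 0 passed after adjustment. Their means were higher in KO for 5 and lower for 1, with a median log2 difference of 0.30 (0.76 without control 2). The brightest by mean signal were Prelp, which anchors basement membranes to collagen, and Ogn, osteoglycin. Prelp differed by 0.09 (SE 0.43) and Ogn by 0.01 (SE 0.50), both less than their standard errors, and by 0.20 and 0.25 without control 2.

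Fibronectin, the Fn1 product, forms the fibrils to which cells attach through integrins. The leading Fn1 probe (ILMN_2595714) read 74.7, 5.06 and 127 in control and 118, 197 and 159 in KO. Control 2 was far below the others, at 0.0677 times control 1. Log2 means of 5.18 ± 2.49 (SD, n = 3) and 7.27 ± 0.37 were found for control and KO. The difference of 2.09 (SE 1.20, limma adjusted p = 0.921) became 0.67 (SE 0.43) without control 2. KO 1 then lay below control 3. Of the 3 other Fn1 probes, 1 was at the floor on all 6 arrays and the rest read 6.12 or less everywhere.

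Periostin, a matricellular protein of wound repair encoded by Postn, was dim. Its only probe above the floor (ILMN_2766028) read 12.8, 77.0 and 22.8 in control and 16.4, 27.9 and 17.4 in KO. Control 2 read 5.99 times control 1, and all 3 KO arrays lay between control 1 and control 2. The log2 difference was -0.50 (SE 0.73), and 0.22 (SE 0.45) without control 2.

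Sparc, the matricellular protein osteonectin, binds collagen and is made by fibroblasts and endothelium. Its leading probe (ILMN_3136561) read 386, 282 and 724 in control and 433, 1114 and 925 in KO. KO 2 and KO 3 were the highest arrays and KO 1 lay below control 3, for a log2 difference of 0.83 (SE 0.59), or 0.53 (SE 0.57) without control 2. A second probe (ILMN_3059326) read 104 and 178 on control 1 and control 3 and 192, 345 and 257 in KO, with control 2 at the floor. Here every KO value exceeded every control value (p = 0.1 by exact permutation, its lower limit). The log2 difference was 3.28 (SE 1.90, limma adjusted p = 0.921) and became 0.92 (SE 0.44) without control 2, where the groups again did not overlap. The third probe (ILMN_1243212) had control 2 as its highest array, at 136 against 12.7 and 47.8 on the other control arrays and 21.6, 73.7 and 54.1 in KO. Its log2 difference was 0.02 (SE 0.96), and 0.84 (SE 0.82) without control 2.

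Among 17 tested genes of other matricellular and adhesive proteins 7 were higher and 10 lower in KO, 0 passed after adjustment, and the median log2 difference was -0.25 (0.08 without control 2). Spon2, a secreted adhesion protein, had control log2 values of 9.05, 11.39 and 9.58 and KO values of 9.46, 10.24 and 10.41. Ccn2, the connective tissue growth factor induced by TGF-beta, had 9.19, 11.68 and 10.26 in control and 9.58, 8.96 and 9.86 in KO. On both probes control 2 was the highest array. The log2 differences of Spon2 and Ccn2 were 0.03 and -0.91 with control 2, and 0.72 and -0.25 without it.

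**Figure D2:**
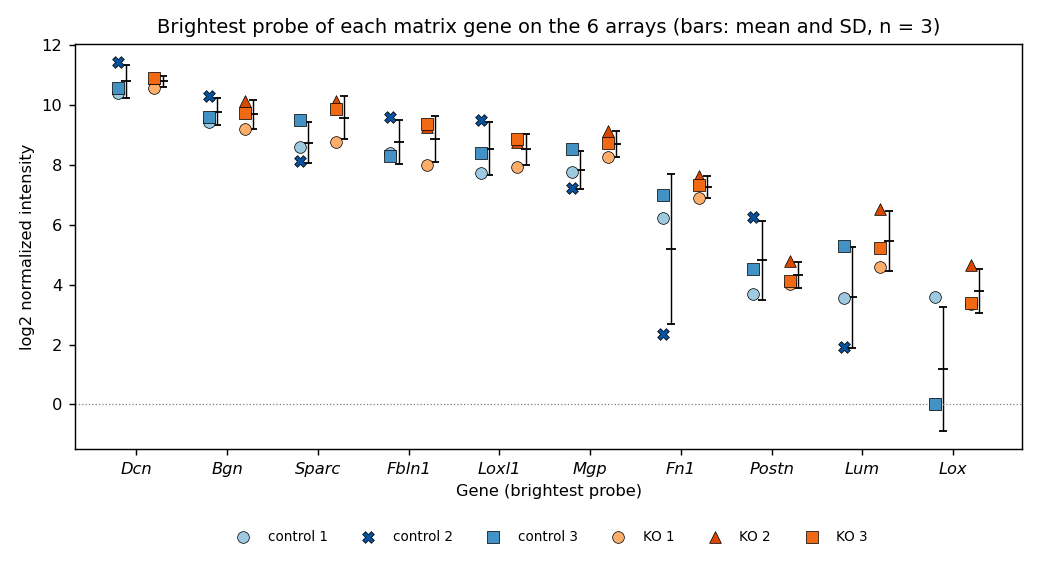
Log2 normalized intensity of the brightest probe of each gene on the 6 arrays, with the mean and SD of each group (n = 3). Levels of different genes cannot be compared on this axis because probes differ. Control 2 (crosses) is the highest array for 5 genes and the lowest, alone or with another array at the floor, for the other 5.

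Matrix Gla protein, encoded by Mgp, keeps soft tissue from calcifying and is made by smooth muscle and fibroblasts. Its 1 probe read 215, 150 and 366 in control and 304, 557 and 427 in KO. The 2 highest arrays were KO 2 and KO 3, and KO 1 lay below control 3. The log2 means of 7.83 ± 0.65 (SD, n = 3) and 8.70 ± 0.44 differed by 0.87 (SE 0.52, limma adjusted p = 0.921), or by 0.57 (SE 0.45) without control 2.

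Fibulin-1, the Fbln1 product, sits in elastic fibres and basement membranes and binds fibronectin. Its 5 probes were all tested and disagreed on control 2. The leading probe (ILMN_2870672) read 336, 777 and 316 in control and 254, 621 and 652 in KO, with control 2 highest and KO 1 lowest. Both other bright probes (ILMN_2497957 and ILMN_2449644) also read high on control 2, at 319 and 536, against 101 to 183 on the other control arrays. The log2 differences of these 3 probes lay between -0.26 and 0.11 with control 2 and between 0.36 and 0.52 without it. The fourth (ILMN_2728985) read 24.2 and 27.2 on control 1 and control 3 and 36.4, 39.9 and 42.4 in KO, with control 2 at the floor. It was higher in KO without overlap, by 2.18 (SE 1.28) and by 0.62 (SE 0.31) without control 2. The fifth (ILMN_2602770) was at the floor on all 3 control arrays and read 3.30, 11.7 and 8.33 in KO. It had the smallest p among the matrix probes (limma unadjusted p = 0.00218, adjusted p = 0.482), close to the floor, where no fold change can be given. This probe passed the filter only through its KO values.

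Of 11 tested genes for other elastic fibre and microfibril proteins 7 were higher and 4 lower, 0 passed after adjustment, and the median log2 difference was 0.09 (0.29 without control 2). Ltbp3 and Ltbp4, latent TGF-beta binding proteins, were the brightest. Ltbp3 differed by 0.09 (SE 0.43), or 0.29 without control 2. Ltbp4 read 8.82 (log2) on control 2 while the rest ran from 6.81 to 7.43, and differed by -0.48 with control 2 and 0.15 without it.

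Lysyl oxidase, encoded by Lox, starts the crosslinking of collagen and elastin. Its single probe was dim, at 11.9 on control 1 and at 10.1, 25.0 and 10.4 in KO, while the other 2 controls sat at the floor. The fitted log2 difference of 2.60 (SE 1.06, limma adjusted p = 0.921), or 2.00 (SE 1.15) without control 2, depends on that floor and is no measure of a fold change. Control 1 lay above KO 1 and KO 3, so the groups overlapped. Loxl1, the family member needed for elastic fibre upkeep in mice, read 212, 715 and 335 in control and 242, 434 and 468 in KO on its bright probe (ILMN_1255871). Its KO arrays lay within the control range. The log2 difference was -0.02 (SE 0.60), and 0.46 (SE 0.46) without control 2, while the second Loxl1 probe was at the floor on all control arrays and on KO 1.

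Of 13 tested genes for other matrix processing and crosslinking enzymes 4 were higher and 9 lower, with a median log2 difference of -0.17. Without control 2, 10 were higher and 3 lower, with a median of 0.32. None of these differences passed after adjustment. Serpinh1, the collagen chaperone, read 11.15 (log2) on control 2 while the rest ran from 9.04 to 10.45, so its difference was -0.20 with control 2 and 0.32 without it. Tgm2, a transglutaminase that crosslinks proteins, differed by 0.11 (SE 0.41), or 0.21 without control 2.

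Probes of the same gene departed in opposite directions on control 2. For Dcn the leading probe stood 0.84 (log2) above the median of the other 5 arrays on control 2 and the second probe 6.96 below it. For Sparc the departures were -1.36, -7.59 and 1.51, and for Fbln1 they ran from -5.18 to 1.65. Both tested probes of Lum and of Fn1 were low. Of the 20 tested probes control 2 was the highest array for 8 and the lowest, or at the floor, for 11. Over all tested probes it was the highest for 38.6%. It was alone the lowest for 8 of the 20 matrix probes and 26.1% of all tested probes. Beyond these genes the count was taken over brighter probes only. Among 1301 genes with at least 2 probes of a mean log2 above 6, probes departed by more than 1 in both directions for 77 genes (5.92%) on control 2, for 1 gene on KO 2 and for 0 on the other 4 arrays. Dcn, Sparc and Fbln1 are not among the 77, because their opposite departures involve probes of a mean log2 below 6. The median range between probes of a gene was 1.07 on control 2 and 0.22 to 0.29 elsewhere. Why this array reads so was not tested. With all tested probes of a gene averaged, an alternative chosen after this was seen, Sparc differed by 1.38 (SE 0.72) and Fbln1 by 0.96 (SE 0.48), and Dcn by -0.04 (SE 0.44). Without control 2 these were 0.76, 0.94 and -0.28.

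**Figure D3:**
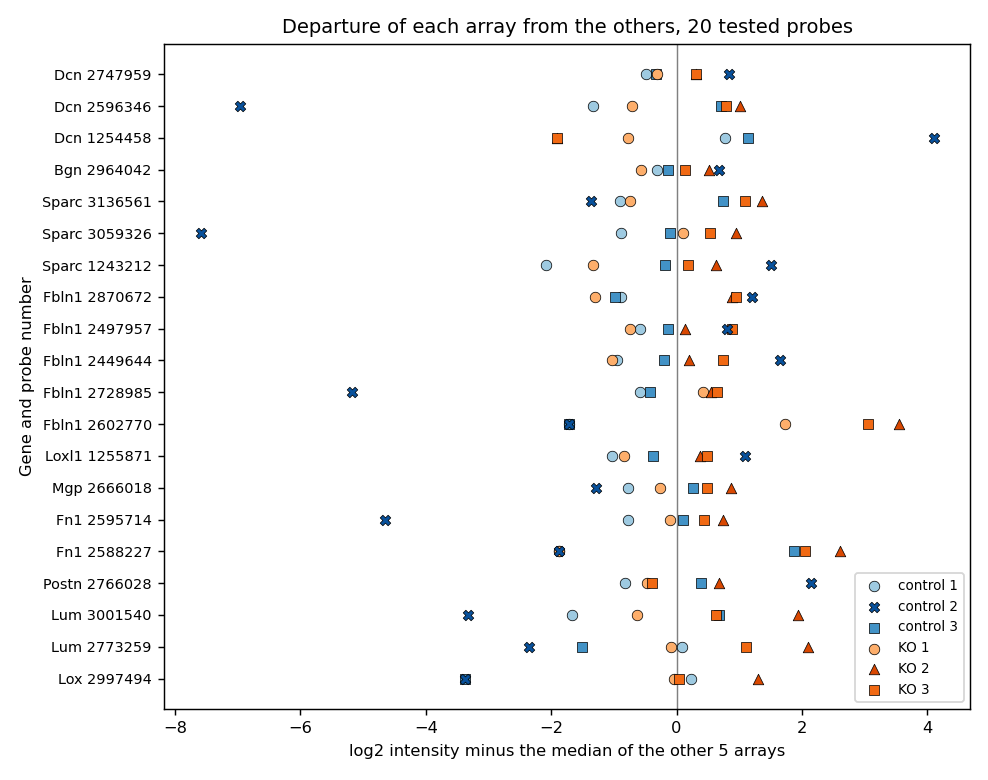
Log2 intensity on each array minus the median of the other 5 arrays, for the 20 tested probes (gene and probe number on the vertical axis). Crosses (control 2) lie far left for some probes of Dcn, Sparc and Fbln1 and right of 0 for other probes of the same genes, while the other arrays stay closer together.

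The KO arrays also differed among themselves. KO 1 was the lowest KO array for 19 of the 20 tested probes and for 10 of the 10 leading probes, against 31.4% of all tested probes. It was also the lowest for 10 of the 10 bright matrix probes, against 35.2% of all probes as bright. KO 2 was the highest KO array for 13 of the 20 (30.5% of all tested probes). On the leading probes KO 2 read 1.91 times KO 1 for Bgn, 2.57 times for Sparc, 1.83 times for Mgp and 3.85 times for Lum. The ratio was 1.24 for Dcn, 1.66 for Fn1, 1.70 for Postn, 1.79 for Loxl1, 2.45 for Fbln1 and 2.47 for the dim Lox. For the leading probes of Dcn, Fbln1 and Loxl1 the highest KO array was KO 3. Control 1 lay below control 3 for 16 of the 20 probes, against 49.4% of all tested probes, and for 9 of the 10 bright ones (51.2%). KO 1 lay below control 3 for 14 of the 20 probes (48.3% of all tested probes). Without control 2, 4 probes were higher and 1 lower in KO without overlap (8.15% and 8.12% of all tested probes), and the rest overlapped.

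Some other gene lists of the gut wall varied with them, and others did not. The 10 bright matrix probes had a mean log2 intensity of 7.89, 7.59 and 8.43 in the controls and 8.06, 8.96 and 8.93 in the knockouts. On control 2 this mean joins 5 probes for which that array was highest (mean 9.97) and 4 for which it was lowest (4.43). It describes neither set there. The 13 tested smooth muscle markers had 9.55, 9.88 and 10.40 in control and 10.02, 10.82 and 10.91 in KO, and all 13 were lowest among the KO arrays on KO 1. Of these markers 12 were higher in KO (13 without control 2, median 0.64), 0 passed after adjustment, and their summed intensity ran from 28189 to 46566 in control and from 37205 to 56581 in KO. The 14 tested collagens had means of 5.47, 6.05 and 6.49 in control and 5.66, 6.71 and 6.69 in KO, and KO 1 was the lowest KO array for 13. Of 13 tested fibroblast markers 5 were higher and 8 lower, with a median of -0.34 (-0.0050 without control 2). Their summed intensity ran from 906 to 1739 in control and from 749 to 1430 in KO, and KO 1 was again the lowest KO array for 11 of 13. It was the lowest for 1 of 11 endothelial, 2 of 8 enteric neuron and glia, 4 of 9 macrophage and 5 of 12 epithelial markers. Fat markers, with 7 of 8 on the array and none at the floor throughout, had summed intensities of 36.0 to 807 in control and 103 to 429 in KO, lowest in each group on control 1 and KO 1. Enzyme genes of the exocrine pancreas, with 10 of 12 on the array and none at the floor throughout, ran the other way. Their summed intensity was 6248 to 78395 in control and 4227 to 24738 in KO, highest in each group on control 1 and KO 1. The part of muscle, fat or pancreas content in the matrix values was not tested, and in bulk tissue fewer cells of a type cannot be told apart from less RNA per cell.

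**Figure D4:**
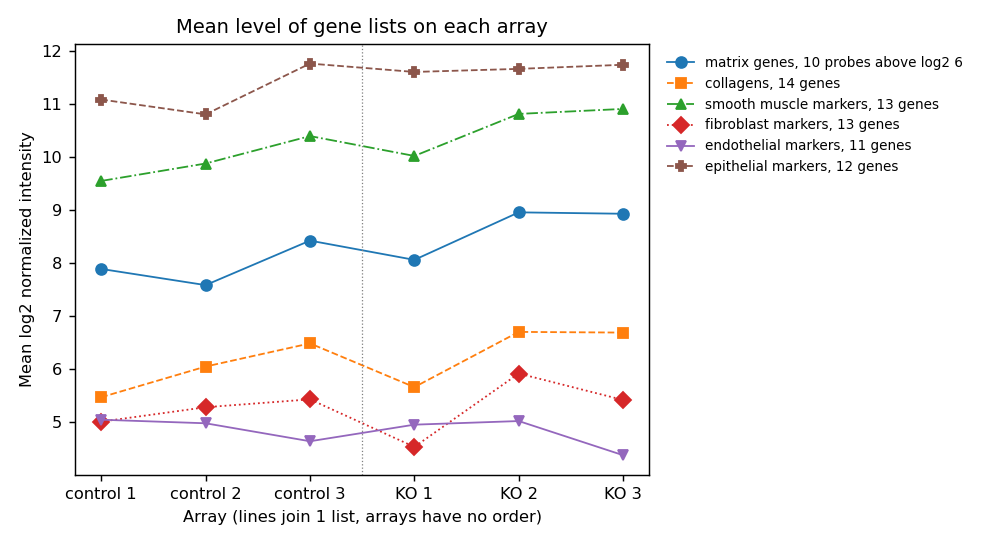
Mean log2 normalized intensity on each array of the 10 bright matrix probes and of lists of collagens and cell type markers (1 probe per gene, tested genes). The matrix mean on control 2 joins probes that read high there with probes that read low. Matrix genes, collagens and smooth muscle markers are lower on KO 1 than on KO 2 and KO 3, while the mean of epithelial markers spans 11.61 to 11.74 on the KO arrays and that of endothelial markers is lowest on KO 3.

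Over 10 lists of other matrix and TGF-beta genes, 117 genes were tested, of which 57 were higher and 60 lower in KO. After adjustment 0 passed, and 3 had an unadjusted p under 0.05. Over all tested probes 47.9% were higher and 4.39% had such a p. Without control 2, 81 were higher and 36 lower, 0 passed and 5 had an unadjusted p under 0.05. The shares over all tested probes were then 50.2% higher and 5.15% with such a p. Of the collagens 13 of 14 were then higher (8 of 14 with control 2), with a median of 0.34. A list of matrix receptors (integrins, syndecans and the collagen receptors Ddr1 and Ddr2) had 6 higher and 6 lower, with a median of -0.02, and 7 higher and 5 lower without control 2, with a median of 0.01. The syndecan gene Sdc4 differed by 0.47 (SE 0.55), or 0.02 without control 2. The epithelial integrin subunit gene Itgb6 differed by -0.50 (SE 0.42, limma adjusted p = 0.921), or -0.54 without control 2. It was lower in KO without overlap both times, as were 5% of all tested probes with control 2 and 8.12% without it. TGF-beta ligands, receptors and transducers had 7 higher and 6 lower of 13, with a median of 0.02, and 8 higher and 5 lower without control 2, with a median of 0.02. The receptor gene Tgfbr1 differed by 0.02 (SE 0.44), or 0.15 without control 2. The transducer gene Smad3 differed by -0.30 (SE 0.47), or 0.01 without control 2.

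Of 18 tested matrix proteases and inhibitors 7 were higher and 11 lower, with a median of -0.32 (0.04 without control 2). Mmp14, a membrane-bound collagenase, differed by 0.24 (SE 0.46), and the inhibitor Timp2 by 0.25 (SE 0.40). Without control 2 both were higher in KO without overlap, by 0.53 and 0.37, where 8.15% of all tested probes were. Of 9 tested basement membrane genes 5 were higher and 4 lower with and without control 2, with medians of 0.07 and 0.11. Agrn, the proteoglycan agrin, differed by -0.68 (SE 0.48), or -0.53 without control 2. The epithelial laminin chain gene Lamb3 differed by -0.10 (SE 0.48), and by -0.43 without control 2, where it was lower in KO without overlap. The 4 tested genes of large proteoglycans and hyaluronan had 1 higher and 3 lower (median -0.42), and 3 higher and 1 lower without control 2 (median 0.43). Cd44, the hyaluronan receptor, differed by 0.54 (SE 0.59), or 0.60 without control 2. Hspg2, perlecan, read 10.41 (log2) on control 2 while the rest ran from 8.62 to 9.38, and its difference was -0.25 (SE 0.58), or 0.27 without it.

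The genes whose profile over the 6 arrays was nearest to the mean profile of the 7 matrix genes with a mean log2 above 6 were Eci2, Cdkn3, Hspd1, Acot7, Col4a1 and Eva1b. Their root mean square distances from it, after centring each gene on its own mean, were 0.10 to 0.15 (log2), against a median of 0.62 over 5809 other genes. The matrix profile itself stood at -0.43, -0.43 and 0.05 in the controls and -0.28, 0.63 and 0.46 in the knockouts. Its value on control 2 averages opposite departures, from -3.89 for Fn1 to 0.96 for Loxl1. Single matrix genes lay farther from their own mean profile than these 6 genes did, from 0.30 for Mgp to 1.55 for Fn1. Col4a1, a basement membrane collagen gene, differed by 0.66 (SE 0.49) between KO and control, and by 0.53 without control 2. The other collagen gene of highest mean, Col6a1, differed by 0.62 (SE 0.60), or 0.09 without control 2.

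The 6 probes too dim to be tested belonged to Dcn (1), Fn1 (2), Postn (2) and Loxl1 (1). Of these 3 were at the floor on all 6 arrays, both of Postn and 1 of Fn1, and the other 3 read 4.02 or less on every array.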

How the data were processed

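Gene expression was measured in 6 colon RNA samples on Illumina bead arrays. Per the labels' protocols, RNA was extracted, treated with DNase and labelled as biotinylated cRNA. The values used are the deposited normalized probe intensities on a linear scale. Software, background correction and normalization are not given in the sources. The shared median and maximum are what quantile normalization gives. The number of arrays limits the precision. A further table of 12 columns of unnormalized values and detection p-values was not used, because its column names match no sample's labels.

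Intensities were log2 transformed with no offset. Platform annotation gave 1 symbol to 34885 probes, several to 18 and none to 10378, and all 10 gene symbols were matched in RefSeq (GRCm38.p6). The 27168 probes with a mean log2 above the 40th percentile (0.96) were fitted singly in limma 3.58.1 (R 4.3.3, lmFit and eBayes, 2-sided), with Benjamini-Hochberg adjustment over all of them and a threshold of 0.05. Differences are KO minus control on the log2 scale, with limma's standard errors, and SDs are over 3 arrays. Exact permutation tests used scipy 1.17.1. Such an exact test cannot go below p = 0.1 with 3 against 3 arrays. A gene's leading probe has its highest mean. The genes named from other lists are the 2 with the highest mean, and those alike in profile follow a fixed distance rule (mean log2 above 6). Members, lists and rules were chosen with earlier results of these data known. The fit was also run on simulated data with known differences, with no floor and no array set apart as control 2 was. Their spread was drawn from probes with a mean log2 above 6, and only such probes were given differences. Dim probes with a difference were therefore not covered. The fit returned mean estimates close to the known differences. After adjustment it called only part of the probes given the largest difference and none of those given smaller ones, so a probe that misses the threshold is not shown to be unchanged. Alternatives covered the offset, the filter, normalization, the eBayes options, array weights, a replicate block and each array left out.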

Additional observations from a re-analysis of the deposited data

How the results depend on the processing

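Among the 20 matrix probes 0 passed an adjusted p of 0.05 under each of the 17 alternatives (smallest limma adjusted p 0.257, with array weights). Over all probes 0 passed under 16 of them, with 403 to 1960 at an unadjusted p under 0.05 against 1192 in the fit as reported. The exception was the fit with no filter on dim probes, where 18 of 45281 passed. None of these 18 was a matrix probe, and 15 had a group at the floor on all its arrays. The labels do not say that equal replicate numbers pair the samples, so they were not taken as pairs. Deviations of same-numbered control and KO samples correlated at 0.16, -0.09 and -0.01 over probes. Those of differently numbered samples correlated at -0.19 to 0.14. So few correlations, some of them with control 2, cannot decide whether the samples were paired. A replicate block cannot change the log2 differences of single probes, because each number has 1 control and 1 KO sample. With it 0 probes passed, and 1152 had an unadjusted p under 0.05. Of 306 differences of matrix probes recomputed under the alternatives, 278 kept their direction and 28 reversed, 19 of them on leaving out 1 array. Many of the 278 could not reverse. The replicate block, the eBayes options, the filters and keeping 1 probe per gene leave each probe's difference as it was. With array weights, which gave control 2 a weight of 0.19 against 1.24 to 1.87, the leading probes of Dcn (0.25), Bgn (0.16), Postn (0.14) and Loxl1 (0.39) and the Fbln1 probe ILMN_2449644 (0.29) turned to higher in KO. Without control 2 and with probes of a gene averaged, Bgn (0.17), Postn (0.22) and Loxl1 (0.46) did too. An offset of 16 turned the Sparc probe ILMN_1243212 to -0.0797. Leaving out each array in turn gave ranges of -0.20 to 0.31 for the leading Dcn probe, -0.31 to 0.17 for Bgn, -1.07 to 0.22 for Postn, -0.42 to 0.46 for Loxl1, -0.87 to 0.84 for Sparc ILMN_1243212, and -0.13 to 0.55, -0.35 to 0.39 and -0.79 to 0.41 for Fbln1 ILMN_2870672, ILMN_2497957 and ILMN_2449644.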

Other observations

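Genes for pancreatic digestive enzymes varied widely between arrays of 1 genotype. The 10 measured genes averaged 12.48, 9.79 and 3.30 (log2) over the controls and 9.74, 9.11 and 2.71 over the knockouts. With all 6 arrays each of the 10 had a lower mean in KO, by a median of -1.29, while 47.9% of all tested probes were higher. Without control 2, 8 were lower and 2 higher, with a median of -1.01 (50.2% of all tested probes higher). With all 6 arrays 0 passed an adjusted p of 0.05 in limma and 1 had an unadjusted p under 0.05. Over all tested probes 4.39% had an unadjusted p under 0.05.

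For macrophage markers the direction depended on control 2. With all 6 arrays 6 of 9 had the higher mean in KO (median 0.20 on the log2 scale), and without control 2 it was 1 of 9 (median -0.25). Their mean log2 intensity was 3.82 on control 2 and ran from 5.12 to 6.22 elsewhere, and 0 of the 9 passed after adjustment in limma (0 at an unadjusted p under 0.05).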
